A study of Mus musculus with 12 samples.

Results

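The genes described here are 40 components of autophagy and regulators of the lysosome, chosen by name: the kinase, lipid kinase and conjugation machinery that builds autophagosomes, the ATG8 proteins and cargo receptors, and proteins that serve or control the lysosome. The choice was made with earlier results of these data known. Of the 40, 39 had a probe set assigned to that symbol alone, among 19938 genes measured, and Optn had no listed probe set. Livers of 6 C57Bl/6J mice that received an adenovirus encoding a short hairpin RNA that targets Grb14 (sh Grb14) were set against livers of 6 C57Bl/6J mice that received one expressing a scrambled hairpin (sh scramble). The virus was given by vein at 10 weeks of age, and the livers were taken in the fed state 7 days later, with 1 Affymetrix array per mouse. Both groups therefore carried adenovirus and a hairpin, and livers without virus, or with another hairpin against Grb14, were not analysed here. Grb14 is an adapter that binds the activated insulin receptor and restrains its signalling.

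Autophagy encloses a portion of cytoplasm in a membrane and delivers it to lysosomes for breakdown. The ULK kinase complex starts the process, a class III phosphatidylinositol 3-kinase marks the forming membrane with PI3P, and conjugation enzymes attach ATG8 proteins such as LC3 to the membrane, where receptors dock their cargo. In liver, insulin and feeding restrain autophagy through mTORC1 and fasting releases it, and the transcription factors TFEB and TFE3 bind promoters of many autophagy and lysosome genes when they enter the nucleus. These are properties of proteins, and the arrays measured RNA only.

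All levels below are deposited log2 values, and a change is the sh Grb14 mean minus the sh scramble mean with the standard error (SE) of a limma fit across all 19938 genes. Genes with an adjusted p under 0.05 (Benjamini-Hochberg, over the whole array) passed the test. A probe set's brightness depends on its probes, so levels are compared between groups and never between genes. Grb14 itself lay at 8.02 to 8.44 (median 8.23) in sh Grb14 livers, against 10.08 to 10.25 (median 10.14) in sh scramble livers. It was thus lower in all 6 sh Grb14 livers, a change of −1.91 (SE 0.059, adjusted p = 7.99e-14), with 26.7% of the sh scramble level left and an exact two-sided permutation p = 0.00216, the smallest that 6 against 6 mice can give.

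Most of the autophagy machinery was lower in sh Grb14 livers, while the transcription factor genes Tfe3 and Tfeb were higher. Of the 39 measured genes, 29 fell, 4 rose (Tfe3, Tfeb, Atg12 and Vps18) and 6 did not pass the test (Uvrag, Ambra1, Atg7, Gabarap, Lamp1 and Rab7). Across all genes 65.3% passed, 25.8% in the higher and 39.5% in the lower direction, so differences were widespread in these livers. Among the 39, chosen with earlier results of these data known, 84.6% passed, 10.3% in the higher and 74.4% in the lower direction. The median change was −0.34 over the 39 genes and −0.10 over all genes. Groups did not overlap for 24 of the 39 (61.5%), against 41.2% of all genes. All 39 lay above the median level of the genes measured. Among the 9969 genes above that level 78.1% passed, with 37.9% higher, 40.2% lower and a median change of −0.02. Groups did not overlap for a similar share of these brighter genes as of the 39. The 61.5% therefore does not set the 39 apart from genes above the median level. When every array was instead centred on the median of the genes tested, a setting chosen after the data were seen, all changes shifted by −0.15. The 39 genes then held 1 rise and 34 falls, and all genes 3859 rises and 12943 falls, against 5144 and 7868 without the centring.

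**Figure D1:**
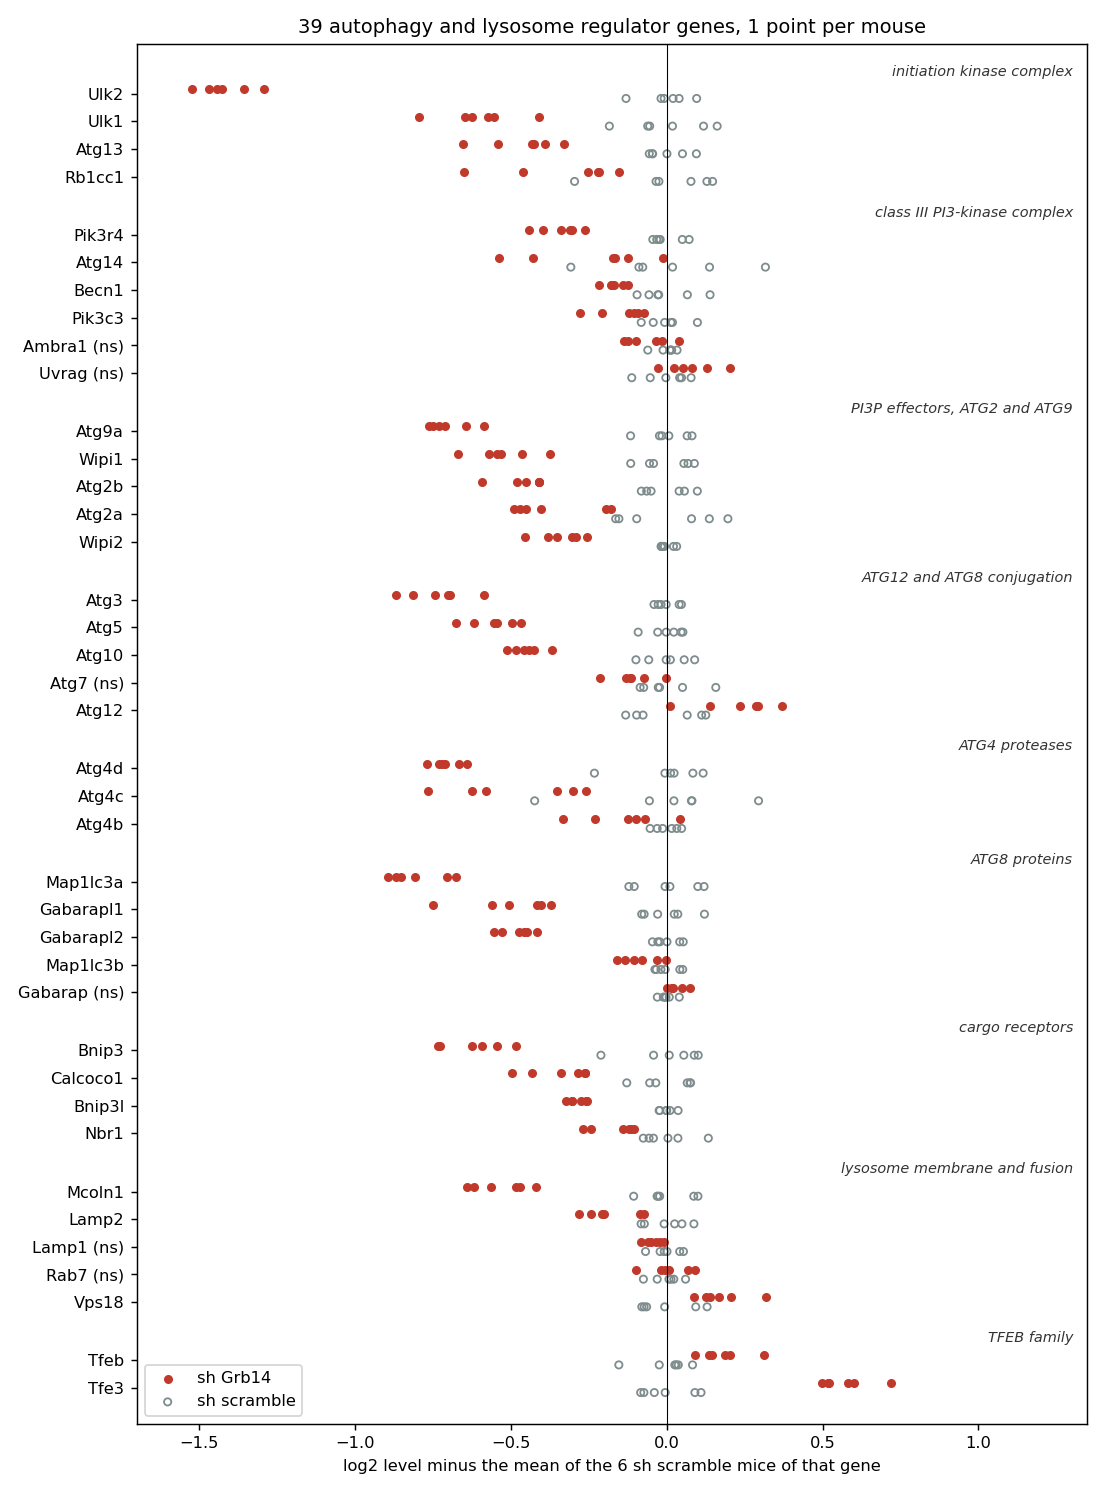
Log2 level of each of the 39 genes in each mouse, minus that gene's mean over the 6 sh scramble mice; filled points are sh Grb14 mice and open points sh scramble mice, drawn in 2 rows per gene, and genes that did not pass the test carry "ns". Ulk2 lies farthest to the left, and Tfe3 is the gene farthest to the right with groups that do not overlap.

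The machinery was lower in every sh Grb14 mouse, but not to the same depth. The median of the 39 genes' deviations from the sh scramble mean was −0.26, −0.26, −0.30, −0.45, −0.40 and −0.26 in sh Grb14 mice 1 to 6, against −0.042 to 0.050 in the 6 sh scramble mice. Mice 4 and 5 were lowest, and they also had the lowest array weights that limma estimated, 0.514 and 0.54, against 0.748 to 1.77 for the other 10 arrays. Without these mice, 26 genes fell, 5 rose, and the median change was −0.30.

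Markers of other cells moved with the groups. All 10 measured markers of monocytes and recruited macrophages rose, and their mean level was 10.02 to 10.38 in sh Grb14 livers, against 8.26 to 8.55 in sh scramble livers. The largest changes among them were Gpnmb, a glycoprotein of lipid-laden macrophages, with 4.79 (SE 0.15, adjusted p = 6.42e-14), and the integrin gene Itgax, with 2.41 (SE 0.080, adjusted p = 1.89e-13). Of 13 hepatocyte markers, 12 fell, and their mean level was 11.89 to 12.37 in sh Grb14 livers, against 12.99 to 13.07 in sh scramble livers. Cyp7a1, the rate-limiting enzyme of bile acid synthesis, changed by −2.42 (SE 0.21, adjusted p = 2.27e-08) and Hal, which breaks down histidine, by −2.04 (SE 0.13, adjusted p = 6.66e-10). Albumin (Alb), which defines the tissue, lay near the top of the scale in both groups, at 13.89 to 13.99 (median 13.96) in sh Grb14 livers, against 13.88 to 13.95 (median 13.92) in sh scramble livers. In whole liver, fewer cells of a type and less RNA per cell cannot be told apart, and the part of these marker shifts in the changes of the autophagy genes was not tested.

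The initiation kinase complex fell as a whole: 4 of 4 genes passed the test and were lower, with a median change of −0.53. For this role and those that follow, the shares to compare are 39.5% lower among all genes and 40.2% among the 9969 above the median level. Ulk2, which encodes a kinase that starts autophagosome formation, had the largest change of all 39 genes. Its level was 8.99 to 9.22 (median 9.08) in sh Grb14 livers, against 10.38 to 10.61 (median 10.52) in sh scramble livers. The groups lay more than 1 unit apart, the change was −1.42 (SE 0.048, adjusted p = 2.51e-13), and 37.4% of the sh scramble level was left. Ulk1, which encodes the related kinase that AMPK and mTORC1 phosphorylate, lay at 9.01 to 9.40 (median 9.21) in sh Grb14 livers, against 9.62 to 9.97 (median 9.79) in sh scramble livers. Its groups did not overlap either, and the change was −0.60 (SE 0.067, adjusted p = 6.37e-07). Atg13, an adapter of the complex, fell by 0.46 on the log2 scale (SE 0.051, adjusted p = 5.4e-07) with groups that did not overlap, and Rb1cc1, the scaffold FIP200, changed by −0.33 (SE 0.088, adjusted p = 0.00438) with overlapping groups.

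The class III PI3-kinase complex had a median change of −0.16, and 4 of its 6 genes fell. Pik3r4, the regulatory subunit VPS15, had the largest change of the complex. Its level was 8.65 to 8.83 (median 8.77) in sh Grb14 livers, against 9.05 to 9.16 (median 9.07) in sh scramble livers. These groups did not overlap, and the change was −0.34 (SE 0.044, adjusted p = 4.07e-06). Becn1, the Beclin 1 scaffold, changed by −0.17 (SE 0.045, adjusted p = 0.00413) with no overlap, and Pik3c3, the catalytic subunit, by −0.15 (SE 0.051, adjusted p = 0.0197) with overlap. Atg14, which directs the complex to autophagosome formation, changed by −0.24 (SE 0.10, adjusted p = 0.0486), and its groups overlapped. The Atg14 call was lost in 13 of 21 alternative settings, with adjusted p up to 0.272, among them 9 that left out a single mouse, sh Grb14 mouse 1, 3, 4 or 5 or sh scramble mouse 2, 3, 4, 5 or 6. Pik3c3 lost its call in 1 setting, without sh Grb14 mice 4 and 5 (adjusted p = 0.0521). Uvrag, which joins a version of the complex acting later at endosomes, lay at 9.42 to 9.65 (median 9.51) in sh Grb14 livers, against 9.33 to 9.53 (median 9.47) in sh scramble livers, and Ambra1, a Beclin 1 partner, at 9.68 to 9.85 (median 9.75) in sh Grb14 livers, against 9.76 to 9.85 (median 9.83) in sh scramble livers. Both overlapped between groups, and neither passed, with changes of 0.077 (SE 0.049, adjusted p = 0.171) and −0.062 (SE 0.041, adjusted p = 0.186).

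The 5 genes chosen here that act on PI3P-marked membrane or supply lipid to it all fell, with groups that did not overlap. Their median change was −0.46. Further core genes outside this choice are given below and held rises as well as falls. Atg9a encodes the lipid scramblase whose vesicles seed the membrane. Atg9a lay at 9.71 to 9.88 (median 9.75) in sh Grb14 livers, against 10.35 to 10.55 (median 10.47) in sh scramble livers, a change of −0.70 (SE 0.044, adjusted p = 4.97e-10). Wipi1, a PI3P-binding propeller protein, lay at 8.45 to 8.74 (median 8.58) in sh Grb14 livers, against 9.002 to 9.21 (median 9.12) in sh scramble livers, a change of −0.53 (SE 0.055, adjusted p = 2.94e-07). Wipi2, which recruits the conjugation machinery to PI3P, fell by 0.34 on the log2 scale (SE 0.039, adjusted p = 8.67e-07). The lipid transfer proteins behaved alike in direction, with changes of −0.36 (SE 0.076, adjusted p = 0.000547) for Atg2a and −0.46 (SE 0.048, adjusted p = 2.87e-07) for Atg2b. Another Atg2b probe set gave −0.55 (SE 0.059, adjusted p = 4.24e-07).

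**Figure D2:**
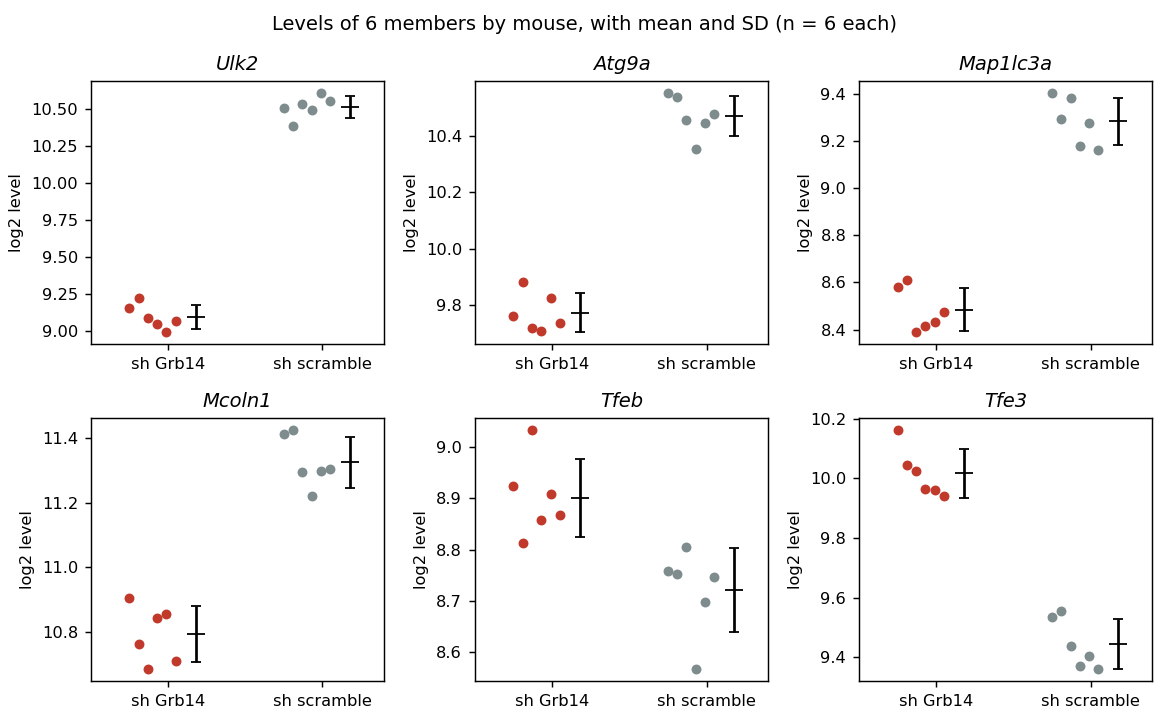
Deposited log2 levels of Ulk2, Atg9a, Map1lc3a, Mcoln1, Tfeb and Tfe3 in each mouse, sh Grb14 left and sh scramble right, with the mean and SD of 6 mice beside the points; each panel has its own axis, which does not start at 0. The groups are apart in all 6 panels, by the least for Tfeb, with sh Grb14 lower in the first 4 panels and higher in the last 2.

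The conjugation enzymes, which work like those of the ubiquitin system, divided into 3 falls, 1 rise and 1 gene that did not pass. Atg3, the E2-like enzyme that transfers ATG8 proteins to phosphatidylethanolamine, lay at 9.80 to 10.08 (median 9.94) in sh Grb14 livers, against 10.63 to 10.71 (median 10.66) in sh scramble livers. The groups did not overlap, and the change was −0.73 (SE 0.045, adjusted p = 3.52e-10). Atg5, the acceptor of ATG12, lay at 8.93 to 9.14 (median 9.06) in sh Grb14 livers, against 9.51 to 9.66 (median 9.62) in sh scramble livers, again without overlap. Its change was −0.56 (SE 0.045, adjusted p = 1.16e-08), and Atg10, the E2-like enzyme of ATG12, changed by −0.45 (SE 0.047, adjusted p = 2.73e-07). Atg7, the E1-like enzyme that serves both branches, lay at 9.81 to 10.02 (median 9.91) in sh Grb14 livers, against 9.94 to 10.18 (median 10.002) in sh scramble livers, with overlap. It missed the threshold at −0.11 (SE 0.049, adjusted p = 0.0589) and passed it, as a fall, in 6 of 21 alternatives. Atg12, the ubiquitin-like protein joined to ATG5, averaged 8.96 ± 0.13 in sh Grb14 livers and 8.74 ± 0.11 in sh scramble livers (SD, n = 6 each), with overlap between groups. Its rise of 0.22 (SE 0.066, adjusted p = 0.00831) was lost when arrays were centred on the median of the genes tested (0.075, adjusted p = 0.291).

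The ATG4 proteases process new ATG8 proteins and release them from membranes. The 3 chosen here, Atg4b, Atg4c and Atg4d, all fell, with a median change of −0.48. Atg4d lay at 7.87 to 8.0003 (median 7.93) in sh Grb14 livers, against 8.41 to 8.76 (median 8.66) in sh scramble livers, with no overlap and a change of −0.71 (SE 0.058, adjusted p = 1.24e-08). Atg4c changed by −0.48 (SE 0.11, adjusted p = 0.00119) with overlap. Atg4b, the main processing enzyme for LC3 in mammals, changed by −0.14 (SE 0.058, adjusted p = 0.0494) with overlap, and its call was lost in 13 of 21 alternatives, with adjusted p up to 0.257. Among these were 10 that left out a single mouse, namely every mouse but sh Grb14 mice 1 and 3.

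Of the 5 ATG8 genes, whose proteins are attached to autophagosome membrane, 4 fell and 1 did not pass, with a median of −0.48. Map1lc3a lay at 8.39 to 8.61 (median 8.45) in sh Grb14 livers, against 9.16 to 9.40 (median 9.29) in sh scramble livers. That made it the ATG8 gene with the largest change, −0.80 (SE 0.057, adjusted p = 1.97e-09), and the groups did not overlap. Gabarapl1 lay at 11.13 to 11.51 (median 11.42) in sh Grb14 livers, against 11.80 to 11.9999 (median 11.88) in sh scramble livers, also without overlap, a change of −0.50 (SE 0.058, adjusted p = 9.59e-07). Gabarapl2 changed by −0.48 (SE 0.034, adjusted p = 1.81e-09) without overlap, and another, dim probe set for it gave −0.36 (SE 0.10, adjusted p = 0.00662) with overlap. Map1lc3b, the LC3 form used as a marker of autophagosomes, changed by −0.085 (SE 0.036, adjusted p = 0.0477), and its groups overlapped. Another Map1lc3b probe set gave −0.090 (SE 0.035, adjusted p = 0.034), also with overlap. The Map1lc3b call was lost in 12 of 21 alternatives, with adjusted p up to 0.169, 9 of which left out a single mouse (sh Grb14 mouse 2, 3, 5 or 6, or sh scramble mouse 1, 2, 3, 4 or 6). Gabarap lay at 13.11 to 13.18 (median 13.12) in sh Grb14 livers, against 13.08 to 13.15 (median 13.10) in sh scramble livers, with overlap and a change of 0.029 (SE 0.025, adjusted p = 0.319). Its sign turned under centring on the genes tested (−0.12, adjusted p = 0.00203), and it passed as a rise after quantile normalisation (0.075, adjusted p = 0.00549).

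All 4 measured cargo receptors fell without overlap between groups, with a median of −0.32. Bnip3, a mitochondrial receptor induced by hypoxia, lay at 11.33 to 11.58 (median 11.46) in sh Grb14 livers, against 11.85 to 12.16 (median 12.09) in sh scramble livers. Its change was −0.62 (SE 0.056, adjusted p = 4.38e-08), and another probe set gave −0.70 (SE 0.063, adjusted p = 4.9e-08). Either Bnip3 probe set may belong to a copy of the gene elsewhere in the genome, which was not checked. The related receptor Bnip3l (NIX), which removes mitochondria from maturing red cells, changed by −0.29 (SE 0.027, adjusted p = 6.42e-08), with −0.29 (SE 0.028, adjusted p = 9.77e-08) from another probe set. Calcoco1, a receptor for endoplasmic reticulum, changed by −0.35 (SE 0.053, adjusted p = 2.49e-05). Nbr1, a receptor for ubiquitinated cargo and peroxisomes, changed by −0.17 (SE 0.044, adjusted p = 0.00372). Sqstm1, which encodes p62 and belongs to the wider receptor list, moved the other way, at 12.49 to 12.62 (median 12.54) in sh Grb14 livers, against 12.20 to 12.31 (median 12.23) in sh scramble livers, a rise of 0.31 (SE 0.033, adjusted p = 2.83e-07).

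The lysosome membrane and fusion genes were mixed, with 2 falls, 1 rise, 2 genes not passing and a median of −0.042. Mcoln1, the calcium channel TRPML1 of the lysosome, lay at 10.69 to 10.91 (median 10.80) in sh Grb14 livers, against 11.22 to 11.43 (median 11.30) in sh scramble livers. Its groups did not overlap, and the change was −0.53 (SE 0.047, adjusted p = 3.42e-08). Lamp2, a membrane glycoprotein with an isoform needed for chaperone-mediated autophagy, changed by −0.18 (SE 0.042, adjusted p = 0.00131) with overlap. Lamp1, its abundant relative, lay at 12.60 to 12.67 (median 12.64) in sh Grb14 livers, against 12.61 to 12.73 (median 12.67) in sh scramble livers, with overlap and a change of −0.042 (SE 0.029, adjusted p = 0.202). Rab7, the small GTPase of late endosomes, lay at 11.19 to 11.38 (median 11.29) in sh Grb14 livers, against 11.21 to 11.35 (median 11.30) in sh scramble livers. These 2 ranges nearly coincide, with a change of 0.0076 (SE 0.038, adjusted p = 0.865). Vps18, a core subunit of the HOPS complex that tethers membranes before fusion, averaged 8.23 ± 0.081 in sh Grb14 livers and 8.06 ± 0.091 in sh scramble livers (SD, n = 6 each), with overlap. Its rise of 0.17 (SE 0.056, adjusted p = 0.0127) was lost after quantile normalisation (0.057, adjusted p = 0.362) and after centring on the genes tested (0.028, adjusted p = 0.665).

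Both TFEB family genes among the 39 rose, with groups that did not overlap. Tfe3 lay at 9.94 to 10.16 (median 9.99) in sh Grb14 livers, against 9.36 to 9.55 (median 9.42) in sh scramble livers. It was 1.49-fold higher, a change of 0.57 (SE 0.050, adjusted p = 2.64e-08), and passed in all 21 alternatives. Tfeb, its better known relative, averaged 8.90 ± 0.076 in sh Grb14 livers and 8.72 ± 0.083 in sh scramble livers (SD, n = 6 each), a change of 0.18 (SE 0.051, adjusted p = 0.00629). Its groups were barely apart, with the lowest sh Grb14 mouse at 8.814 and the highest sh scramble mouse at 8.804. The Tfeb call was lost after quantile normalisation (0.093, adjusted p = 0.0876) and after centring on the genes tested (0.032, adjusted p = 0.537). The other 2 genes of the family, measured in a separate list, rose too. Tfec, which is expressed in macrophages, lay at 9.49 to 9.94 (median 9.66) in sh Grb14 livers, against 8.13 to 8.34 (median 8.20) in sh scramble livers, a change of 1.46 (SE 0.068, adjusted p = 9.97e-12), and Mitf changed by 0.25 (SE 0.052, adjusted p = 0.000653).

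TFEB and TFE3 are known to bind the letters TCACGTG, which contain the E-box CACGTG, in promoters of their targets, so the 250 bases before the start of 4 genes are shown, with each TCACGTG (or CACGTGA, the same letters on the other strand) in capitals. Mcoln1 (chr8:3500269-3500518, plus strand) and Atg3 (chr16:45158579-45158828, plus strand) fell, Lamp1 (chr8:13158911-13159160, plus strand) did not pass the test and Gla (chrX:134601006-134601255, minus strand), a lysosomal hydrolase, rose. The sequences are RefSeq's, on build GRCm38.p6, written 5′ to 3′ on the strand of the gene.
Mcoln1: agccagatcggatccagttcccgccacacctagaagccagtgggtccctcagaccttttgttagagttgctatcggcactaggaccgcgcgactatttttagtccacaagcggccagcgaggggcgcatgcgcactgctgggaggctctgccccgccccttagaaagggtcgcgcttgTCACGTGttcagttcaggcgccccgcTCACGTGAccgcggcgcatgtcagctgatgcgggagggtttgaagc
Atg3: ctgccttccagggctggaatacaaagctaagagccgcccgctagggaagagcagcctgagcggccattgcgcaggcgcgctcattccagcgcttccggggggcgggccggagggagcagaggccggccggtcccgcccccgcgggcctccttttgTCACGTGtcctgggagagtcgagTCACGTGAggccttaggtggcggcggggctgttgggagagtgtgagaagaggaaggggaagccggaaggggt
Lamp1: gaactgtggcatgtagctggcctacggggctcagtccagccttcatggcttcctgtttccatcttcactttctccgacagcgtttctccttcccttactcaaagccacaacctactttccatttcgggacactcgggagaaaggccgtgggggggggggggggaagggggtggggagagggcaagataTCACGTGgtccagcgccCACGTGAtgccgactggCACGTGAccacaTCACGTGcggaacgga
Gla: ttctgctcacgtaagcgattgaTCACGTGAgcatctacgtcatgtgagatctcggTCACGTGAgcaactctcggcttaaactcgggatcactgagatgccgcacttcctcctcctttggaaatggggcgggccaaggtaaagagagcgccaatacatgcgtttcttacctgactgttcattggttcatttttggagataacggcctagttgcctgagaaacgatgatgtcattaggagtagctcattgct
Mcoln1 has 2 copies, beginning 72 and 46 bases before the start. Atg3 has 2, at 95 and 72 bases, Lamp1 has 4, at 62, 45, 28 and 16 bases, and Gla has 2, at 228 and 195 bases. Windows of 250 bases before and 50 after the start were matched for 33 of the 39 genes; Rb1cc1, Becn1, Pik3c3, Atg12, Map1lc3a and Bnip3l were not matched. TCACGTG stood on either strand in 5 of the 33 genes (15.2%: Atg3, Atg7, Atg14, Lamp1 and Mcoln1), against 5.35% of the 15614 genes tested that have a window and 4.29% of all 27025 genes in the table. CACGTG stood in 7 (21.2%, with Atg5 and Bnip3 added), against 9.5% of the genes tested and 8.09% of all genes. By window, 3.77% of 32851 held TCACGTG and 7.15% held CACGTG. In the other lists TCACGTG stood in 4 of 10 V-ATPase genes, 3 of 9 HOPS and late endosome genes, 5 of 15 TFEB control genes, 7 of 27 hydrolases, 3 of 14 lysosome membrane genes, 3 of 15 selective autophagy genes and 2 of 15 core genes. The 7 hydrolases included Gla, which rose, and Dpp7, which fell. Of the 7 genes among the 39 with CACGTG, 5 fell and 2 did not pass. The letters are a description and show no binding.

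Other autophagy genes, not among the 39, were mixed. Across all genes 25.8% rose and 39.5% fell, and among the 9969 genes above the median level 37.9% and 40.2%. Of 19 further core genes, 4 rose (21.1%) and 10 fell (52.6%), with a median of −0.12. Atg101, which stabilises ATG13, changed by −0.49 (SE 0.069, adjusted p = 1.03e-05), Stx17, the SNARE of autophagosome fusion, by −0.43 (SE 0.042, adjusted p = 1.5e-07), and Epg5, a tether, by −0.41 (SE 0.041, adjusted p = 1.5e-07). Plekhm1, a RAB7 effector, rose by 0.48 (SE 0.044, adjusted p = 4.86e-08), as did Sh3glb1, a membrane-bending Beclin 1 partner, by 0.40 (SE 0.035, adjusted p = 2.21e-08), and Wdfy3, an adapter for protein aggregates, by 0.30 (SE 0.045, adjusted p = 2.1e-05). Of 15 further selective autophagy genes, 5 rose (33.3%) and 7 fell (46.7%), with a median of −0.11. Fundc1, a mitochondrial receptor, rose by 0.49 (SE 0.041, adjusted p = 1.81e-08) and the kinase gene Tbk1 by 0.43 (SE 0.059, adjusted p = 8.03e-06). Pink1, the kinase that marks damaged mitochondria, changed by −0.67 (SE 0.045, adjusted p = 1e-09), and the endoplasmic reticulum receptors Ccpg1 by −0.62 (SE 0.046, adjusted p = 4.06e-09) and Sec62 by −0.59 (SE 0.048, adjusted p = 1.26e-08). The HOPS and late endosome genes held 3 rises (27.3%) and 6 falls (54.5%) among 11 measured. Vps11 changed by 0.17 (SE 0.038, adjusted p = 0.000911) and Rilp, a RAB7 effector, by −1.005 (SE 0.049, adjusted p = 1.93e-11). Rab9 changed by −0.50 (SE 0.069, adjusted p = 7.17e-06) and Mon1a, which helps activate RAB7, by −0.46 (SE 0.048, adjusted p = 3.41e-07). Centring on the genes tested gave 4 rises and 13 falls for the core genes, 4 and 8 for the selective genes and 0 and 8 for the HOPS and late endosome genes.

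**Figure D3:**
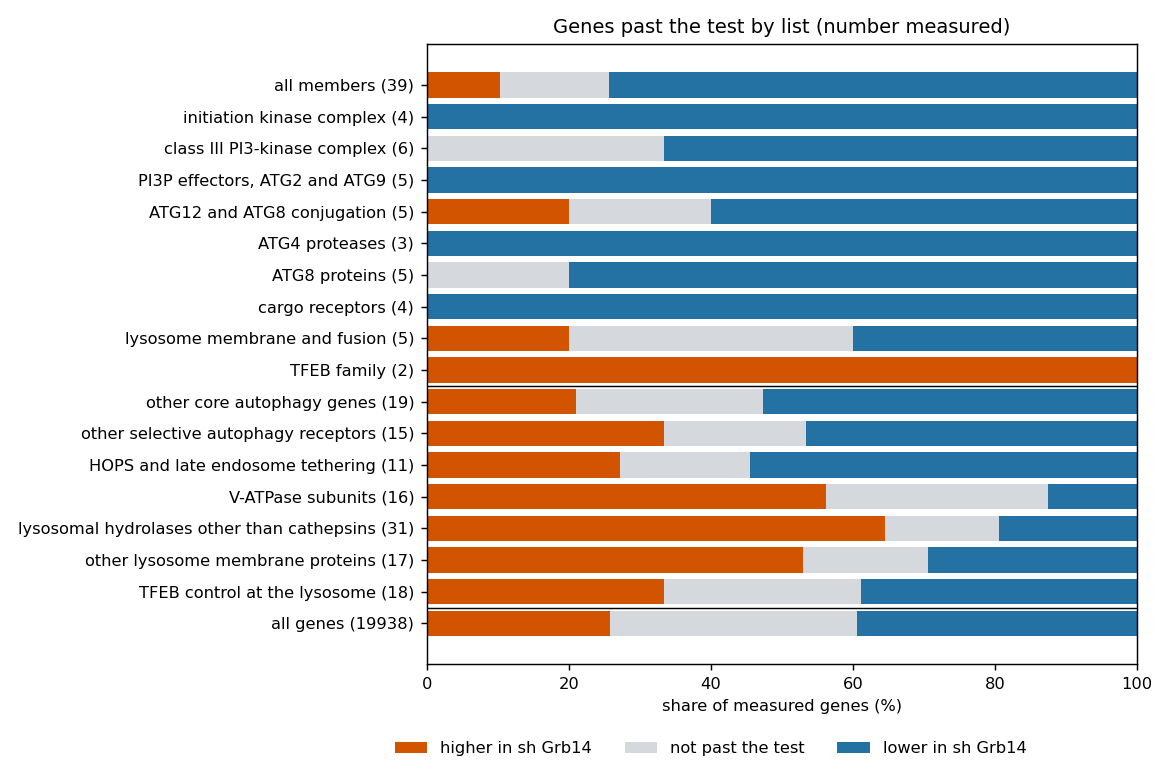
Share of measured genes past the test, in percent, for the 39 genes, their 9 roles, 7 other pathway lists and all genes, with the number measured in brackets; orange marks genes higher in sh Grb14 livers, blue lower and grey those not past the test. Lysosomal hydrolases, V-ATPase subunits and other lysosome membrane proteins have more rises than falls on the deposited scale (with arrays centred on the genes tested, only the hydrolases of these lists do), and most autophagy roles more falls than rises.

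Lysosomal contents and membrane had more rises than falls on the deposited scale, which held for the hydrolases alone when arrays were centred on the genes tested. Of 31 measured hydrolases other than cathepsins, 20 rose (64.5%) and 6 fell (19.4%), with a median of 0.25. Across all genes 25.8% rose and 39.5% fell. Gla, alpha-galactosidase A, lay at 10.78 to 11.10 (median 10.99) in sh Grb14 livers, against 9.09 to 9.31 (median 9.22) in sh scramble livers. The groups were apart, with a change of 1.77 (SE 0.056, adjusted p = 9.84e-14). Ppt1, which removes palmitate from proteins, changed by 1.05 (SE 0.045, adjusted p = 3.43e-12), and Asah1, acid ceramidase, by 0.96 (SE 0.052, adjusted p = 7.33e-11). Among the falls were Dpp7, a peptidase, at −0.61 (SE 0.053, adjusted p = 2.62e-08), Ids, iduronate sulfatase, at −0.24 (SE 0.050, adjusted p = 0.000515), and Smpd1, acid sphingomyelinase, at −0.19 (SE 0.046, adjusted p = 0.00234). Of 16 V-ATPase subunits, which acidify the lysosome, 9 rose (56.2%) and 2 fell (12.5%), with a median of 0.16. Atp6v0d2, a subunit found in macrophages and osteoclasts, lay at 9.33 to 10.29 (median 9.76) in sh Grb14 livers, against 6.56 to 6.94 (median 6.70) in sh scramble livers, a change of 3.004 (SE 0.13, adjusted p = 4.17e-12). Among the other subunits, Atp6v1b2 changed by 0.91 (SE 0.045, adjusted p = 2.09e-11), Atp6v0e by 0.66 (SE 0.036, adjusted p = 8.74e-11) and Atp6v0a1 by −0.34 (SE 0.043, adjusted p = 2.73e-06). Of 17 further lysosome membrane and lipid export genes, 9 rose (52.9%) and 5 fell (29.4%), with a median of 0.11. Cd63, a tetraspanin, rose by 2.45 (SE 0.14, adjusted p = 1.68e-10), Tpcn2, a calcium channel, by 0.93 (SE 0.066, adjusted p = 1.81e-09) and Npc2, a cholesterol carrier, by 0.84 (SE 0.049, adjusted p = 1.63e-10), while Mfsd8 changed by −0.73 (SE 0.057, adjusted p = 7.01e-09), the sialic acid exporter Slc17a5 by −0.69 (SE 0.037, adjusted p = 5.12e-11) and the cystine exporter Ctns by −0.58 (SE 0.061, adjusted p = 3.19e-07). With that centring, the hydrolases held 15 rises and 11 falls, the V-ATPase subunits 6 and 6, and the membrane and lipid export genes 6 and 7. All 10 measured macrophage markers rose alongside, as given above, and their part in these rises was not tested.

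The list for control of TFEB at the lysosome was mixed as well, with 6 rises and 7 falls among 18 and a median of −0.055. It also holds the family members Tfec and Mitf, whose rises, given above, are counted among the 6. With Tfec and Mitf counted, 33.3% were higher and 38.9% lower, near the 25.8% and 39.5% of all genes. Lamtor3, a scaffold subunit of the Ragulator complex, rose by 0.43 (SE 0.048, adjusted p = 5.71e-07) and the GTPase gene Rragb by 0.39 (SE 0.069, adjusted p = 0.000122), both with groups that did not overlap. Rragb was dim, at 5.41 to 5.65 in sh Grb14 livers, against 4.90 to 5.35 in sh scramble livers. The median level of all genes was 7.64. Lamtor2 and Lamtor4, other Ragulator subunits, changed by −0.38 (SE 0.051, adjusted p = 5.24e-06) and −0.41 (SE 0.039, adjusted p = 8.83e-08). Zkscan3, a repressor of autophagy genes, changed by −0.54 (SE 0.048, adjusted p = 3.67e-08). Centring on the genes tested gave 4 rises and 12 falls for this list.

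**Figure D4:**
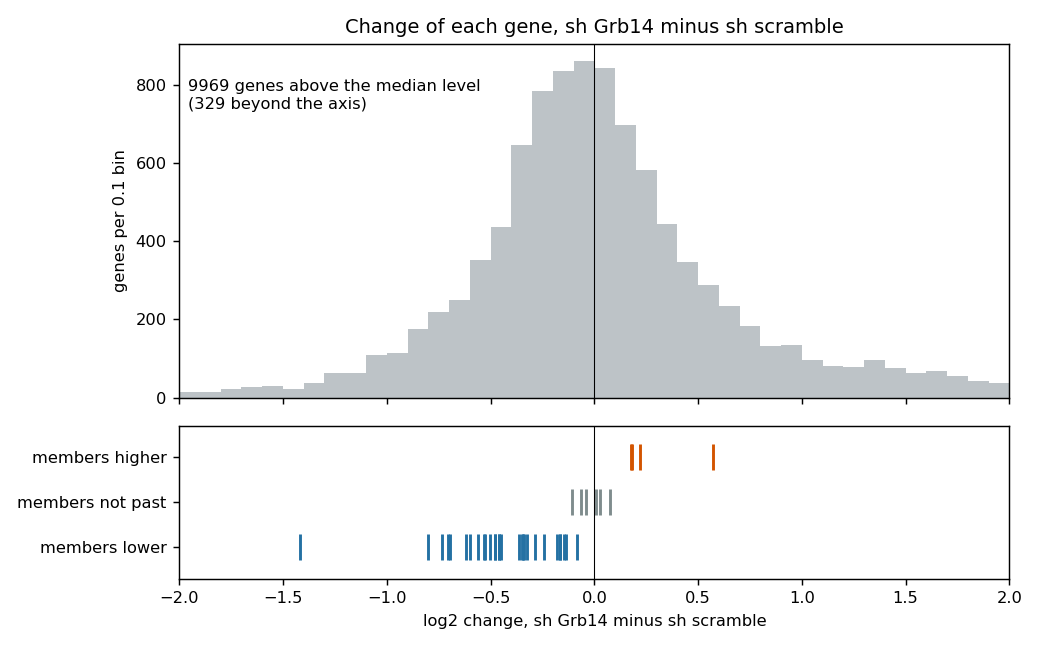
Log2 change, sh Grb14 minus sh scramble, of the 9969 genes above the median level (top, genes per bin of 0.1) and of the 39 autophagy genes (bottom, 1 tick per gene, in rows for higher, not past the test and lower). Ticks of the genes that fell lie mostly left of the centre of the distribution, Ulk2 farthest at −1.42, and the 4 rises lie at 0.17 to 0.57.

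The remaining cell type lists moved as follows, where across all genes 25.8% rose and 39.5% fell. Kupffer cell markers rose in 2 of 7 cases (28.6%, near the share of all genes), and 5 did not pass. The rises were Cd5l by 1.79 (SE 0.079, adjusted p = 4.88e-12) and Folr2 by 0.23 (SE 0.095, adjusted p = 0.0418). Of 9 neutrophil markers 6 rose, led by Cxcr2 at 2.36 and Ngp at 2.27, and of 8 T and cytotoxic cell markers 7 rose and 1 fell, led by Gzmb at 3.46 and Nkg7 at 3.23. B and plasma cell markers rose in 4 of 5 cases, with Cd79b at 0.40 and Jchain at 0.39. Of 6 sinusoidal endothelial markers 1 rose (Lyve1, 1.14) and 5 fell, with Clec4g at −0.85. Stellate cell and fibroblast markers rose in 4 and fell in 2 of 7 cases, led by Acta2 at 2.46 and Col1a1 at 1.76. Of 5 cholangiocyte markers 1 rose (Epcam, 0.48), while 4 did not pass, among them Krt19 (−0.076). Of 2 erythroid genes Slc4a1 rose by 1.28 and Alas2 changed by −1.73.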

How the data were processed

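RNA of 12 livers, extracted with Trizol, was biotin-labelled (100 ng each) and hybridised to Affymetrix whole-transcript arrays, per the labels' protocols. The deposited values are log2 expression values of 35556 probe sets, between 2.74 and 14.24, with array medians between 7.06 and 7.17. The submitters' processing notes name RMA and Partek, without version, role or order. Not given in the sources used here are the chip definition, the genome build of the probes and the scan batches, and batch was therefore not tested. Each array is a separate mouse, and 6 arrays per group limit the precision. Values at either end of the scale can be compressed.

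Genes were named through the platform annotation: 21789 probe sets had 1 symbol, 1621 had several and 12146 had no listed gene. Probe sets with 1 symbol were kept, and for the 999 genes with several, the one with the highest mean over 12 arrays was used. For Atg2b, Bnip3, Bnip3l, Gabarapl2 and Map1lc3b, the probe set used may belong to a copy of the gene elsewhere in the genome. Which probe set belongs to the gene itself was not checked, and both are given. The 19938 genes were fitted with limma 3.58.1 in R 4.3.3 (lmFit, eBayes with intensity trend, no covariate), with Benjamini-Hochberg adjustment and a threshold of 0.05. The code was also run on simulated data with few changed genes and no small changes. That run cannot speak for small changes or for differences as widespread as those here. Letters were counted in RefSeq promoter windows of GRCm38.p6. Probe sets of near-identical genes can cross-hybridise, which was not tested.

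The members and lists were chosen with earlier results of these data known. All members are named, with levels by mouse for those changed at least 1.4-fold, with the largest change of their role or that missed the test. Of each other pathway list, up to 3 rises and 3 falls past the test without overlap are named, and of each cell type list the 2 largest changes. Tfeb, Atg12, Vps18, Mitf and Alb are given levels or values beyond this rule. Alternatives were 2 centrings, quantile normalisation, a level filter, another choice of probe set, no trend, array weights and leaving out mice. Protein sequences were not used here.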

Additional observations from a re-analysis of the deposited data

Results flagged for a closer look

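A mouse far from the other 5 of its group was found in 7 of 196 pairs of a named gene and a group (3.57%), and in 1 of the 78 pairs of the 39 autophagy and lysosome genes. Chance alone flags about 5% of groups. Atg4d was at 8.41 in sh scramble mouse 4, the lowest of its group, with the next at 8.64, and all 6 sh Grb14 mice lay below it. Mon1a was highest in sh Grb14 mouse 5, at 8.79, with the next at 8.63. Atp6v0a1 was highest in sh Grb14 mouse 1, at 10.65, with the next at 10.51. Ppt1 was lowest in sh Grb14 mouse 1, at 11.56, with the next at 11.67. Mfsd8 was highest in sh scramble mouse 6, at 9.18, with the next at 9.10. Gpnmb was lowest in sh Grb14 mouse 2, at 10.56, with the next at 11.22. Krt19 was highest in sh Grb14 mouse 4, at 8.11, with the next at 7.33.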

How the results depend on the processing

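Across 21 alternatives, 18 planned and 3 chosen after seeing the data, 26 of the 39 genes kept their direction and their side of the threshold in each. Of the 29 falls 25 did so, and Tfe3 was the 1 rise that did. Some alternatives could hardly differ from the main fit. The other choices of probe set left the values of genes with a single probe set as they were. Fitting without the trend, or brighter genes alone, left every change as it was and altered only the adjusted p. Leaving out 1 mouse at a time gave 26 to 28 falls, 4 rises, 24 to 27 genes without overlap and a median change of −0.35 to −0.32, with Grb14 at −1.95 to −1.86. The count without overlap cannot drop when a mouse is left out, so its range is no check. Centring arrays on the median of the genes tested gave 1 rise among the 39 genes and a median of −0.49, with −0.25 over all genes and 12943 falls among them. That setting also gave 0 rises for HOPS and late endosome genes, 6 falls for the V-ATPase, 11 for hydrolases and 12 for TFEB control. It reversed the sign of Uvrag (−0.070), Gabarap (−0.12) and Rab7 (−0.14). Rab7, which did not pass the test, also reversed with centring on all probe sets (−0.0023), with array weights (−0.0019), without sh Grb14 mice 4 and 5 (−0.0067), and when sh Grb14 mouse 2 or 5 or sh scramble mouse 5 was left out (−0.0088 to −0.0046, within a range of −0.0088 to 0.029 over all mice left out in turn). Genes above the median level alone gave 4051 falls, with fewer genes tested, and a median of −0.02. Without sh Grb14 mice 4 and 5 the V-ATPase held 1 fall. The cause of the other changes was not tested. No paired analysis was possible because the labels give each mouse a number of its own and tie no mouse of one group to a mouse of the other; the numbers 1 to 6 used here only name the mice of a group. Dim probe sets had no detection call, so their changes can be understated.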
